A study of Mus musculus with 16 samples.

Results

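The mRNAs of the collagen chains were examined in gastrocnemius muscle, a mixed calf muscle, of mice on two-color Agilent arrays. Every probe that was not a control and carried a gene name of the form Col, number, a, number was taken. This gave 81 of 41174 probes, for 40 of 27745 gene names on the array, namely 9 fibrillar, 8 basement membrane and 23 other chains. For 61 of these probes the accession on the array was found in RefSeq, and all 61 had the same symbol there.

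Collagens are secreted proteins in which chains wind into a triple helix, and each chain has its own gene. The fibrillar chains (collagens I, II, III, V and XI) build the rope-like fibrils that give tendon and the connective tissue around muscle fibers their tensile strength. The chains of basement membranes (collagens IV, XV and XVIII) form or anchor the thin sheets that wrap every muscle fiber and capillary. The remaining chains form microfilaments (collagen VI), attach to fibril surfaces (collagens IX, XII, XIV, XVI and XIX to XXII), sit in cell membranes (collagens XIII, XVII, XXIII and XXV) or make other networks (collagen VIII). Collagens XXIV and XXVII are fibrillar by structure but stand among the other chains here, since the fibrillar class was limited to collagens I, II, III, V and XI.

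Both groups were male C57BL/6N mice, 3 months old at the start, with 8 mice per group. The cHF+ROSI mice ate a corn oil-based high-fat diet (cHF, lipid content 35% wt/wt) with 10 mg of rosiglitazone, a thiazolidinedione and agonist of the nuclear receptor PPARγ, per kg of diet. In the cHF+F+ROSI diet, which held the same dose of rosiglitazone, an n-3 LC-PUFA concentrate (46% DHA and 14% EPA) took the place of 15% of the lipids. After 8 weeks all mice were fasted for 10 h in the light phase, re-fed Chow overnight and killed the next morning, so fasting and re-feeding were common to both groups. No group without rosiglitazone was part of this comparison, which asks what the n-3 LC-PUFA add to the drug. The unit throughout is log2(Cy5/Cy3), the RNA of 1 mouse (Cy5) over a common pool of RNA from the diets of the study (Cy3), and a log2 fold change is the mean of cHF+F+ROSI minus the mean of cHF+ROSI. A ratio to the pool is comparable between mice but not between probes.

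The arrays lay on 4 slides with 2 mice of each group on every slide, and diet followed the position on the slide, so that position and diet cannot be told apart. The median Cy5 signal over background was between 2.33 (cHF+ROSI replicate 1) and 3.64 per array. As checks of the tissue, all 10 muscle fiber markers (Acta1, Ckm and others) passed the filter on dim spots, as did all 10 fibroblast and 8 tendon markers. In whole muscle, fewer cells of a type and less RNA per cell cannot be told apart.

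Of the 81 probes, 43 had a signal of at least 2 times the background in both channels, for 32 genes: all 9 fibrillar, 6 of 8 basement membrane and 17 of 23 other chains. The genes without such a probe were Col4a3 and Col4a5 of the basement membrane class and Col9a3, Col10a1, Col23a1, Col25a1, Col27a1 and Col28a1 of the other class. In 16 genes with both kept and dim probes, the probe nearest the 3′ end was kept in 13. None of the 38 dim probes reached 2 times the background in the reference channel, while 16 of them did in the channel of the mice. Without the filter, log2 fold changes of these 38 probes ran from -0.126 to 0.118 with a median of -0.011, and 2 (Col25a1 and Col28a1) had an unadjusted p of up to 0.05, none after adjustment.

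No collagen chain was called different between the diets. At an adjusted p under 0.05 (limma, Benjamini-Hochberg over all 19398 probes kept) none of the 43 collagen probes passed, where 0.0825% of all probes (16) did. At an unadjusted p of up to 0.05, 3 of the 43 probes (6.98%) were lower in cHF+F+ROSI mice, against 4.93% of all probes, and 0 were higher, against 5.35%. In either direction the share was 10.3% over all probes. The count of 3 is thus near the background and is no result about collagen as a family. All 3 probes were for collagen IV: Col4a1, Col4a2 and Col4a6. For none of the 43 probes were the values of the groups free of overlap, as they were for 0.16% of all probes.

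By class, with the brightest kept probe of each gene, the 9 fibrillar chains had a median log2 fold change of 0.01 (4 lower, 5 higher). The 6 basement membrane chains had a median of -0.10 (5 lower, 1 higher) and the 17 other chains one of -0.02 (9 lower, 8 higher). With each mouse left out, the fibrillar median ran from -0.08 (without cHF+F+ROSI replicate 2) to 0.08 (without cHF+ROSI replicate 4), and that of the other chains from -0.08 (without cHF+ROSI replicate 7) to 0.01 (without cHF+F+ROSI replicate 1). That of the basement membrane chains stayed between -0.11 and -0.07. All 32 chains together had a median of -0.01, and all 19398 probes one of 0.0016. Over all 13575 genes by their brightest probe it was -0.002. The lower median of the basement membrane class came with the 4 collagen IV chains that had a kept probe. On the brightest probe all of them were lower, with a median of -0.17. Without Col4a1 and Col4a2, the other 4 basement membrane chains had a median of -0.02. Of the collagen IV chains left out as dim, Col4a5 had 0.12 without the filter, and the Col4a3 probes had 0.08, -0.01 and -0.13. The plot of log2 fold changes sets every probe beside its interval.

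**Figure D1:**
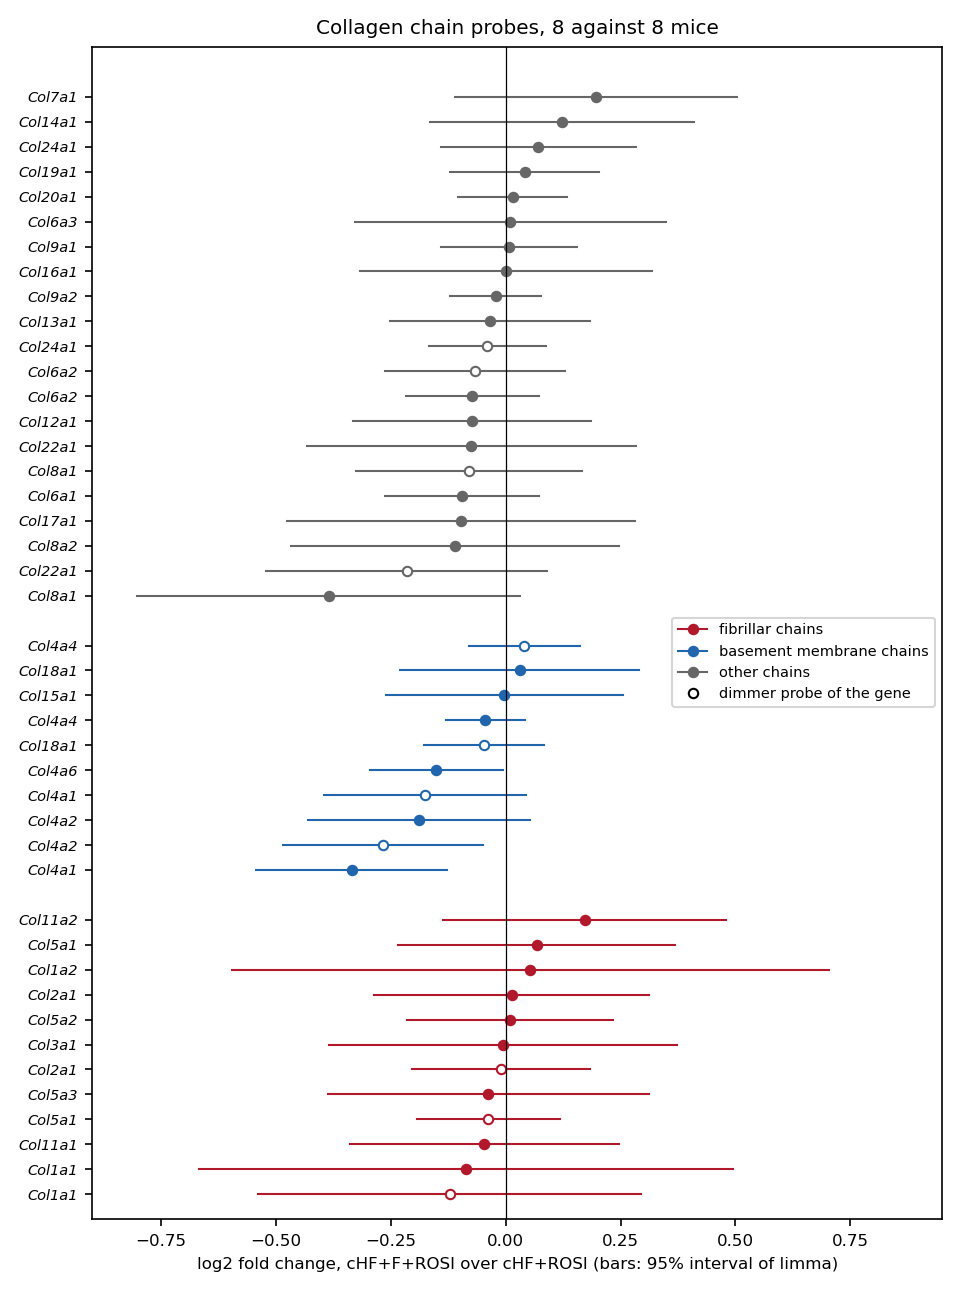
Log2 fold change (cHF+F+ROSI over cHF+ROSI) of the 43 kept collagen probes, with the 95% interval of limma as a bar; colors give the class, open points the dimmer probes of a gene. The intervals of Col4a1, of a dimmer Col4a2 probe and of Col4a6 lie below 0, and the widest intervals are those of Col1a1, Col1a2 and Col8a1.

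Col4a1 and Col4a2 encode the α1 and α2 chains, which join into the main collagen IV network of nearly all basement membranes. Their genes lie head to head on chromosome 8. By the promoter windows (RefSeq, GRCm38.p6), Col4a1 starts at base 11312826 on the minus strand and Col4a2 at base 11312805 on the plus strand. These starts are 21 bases apart with no gap between the genes, as their first bases overlap. The RefSeq span of the Col4a1 gene reaches further, to base 11312889. The promoter windows are shown here because this pair held 2 of the 3 collagen probes below that unadjusted p, and since its chains varied together across mice. Each window holds 250 bases before and 50 bases after the start, and the windows of the pair share 78 bases (chr8:11312777-11312854). Beside them stand Col1a2, of the chain pair of collagen I, and Col3a1, as fibrillar chains. Capitals mark GGGCGG (the GC box), CCAAT (the CCAAT box) and TATAAA (the TATA box) on either strand, so that a motif may stand in its reverse complement. The sequences are from RefSeq, GRCm38.p6, written 5′ to 3′ on the strand of the gene: chr8:11312777-11313076 (minus) for Col4a1, chr8:11312555-11312854 (plus) for Col4a2, chr6:4505368-4505667 (plus) for Col1a2 and chr1:45311288-45311587 (plus) for Col3a1.
Col4a1: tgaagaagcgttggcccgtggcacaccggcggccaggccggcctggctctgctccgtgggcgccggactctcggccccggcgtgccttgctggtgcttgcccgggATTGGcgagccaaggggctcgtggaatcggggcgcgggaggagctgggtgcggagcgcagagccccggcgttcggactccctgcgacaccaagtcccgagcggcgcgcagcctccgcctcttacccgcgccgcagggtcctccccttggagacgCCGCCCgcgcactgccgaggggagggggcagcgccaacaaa
Col4a2: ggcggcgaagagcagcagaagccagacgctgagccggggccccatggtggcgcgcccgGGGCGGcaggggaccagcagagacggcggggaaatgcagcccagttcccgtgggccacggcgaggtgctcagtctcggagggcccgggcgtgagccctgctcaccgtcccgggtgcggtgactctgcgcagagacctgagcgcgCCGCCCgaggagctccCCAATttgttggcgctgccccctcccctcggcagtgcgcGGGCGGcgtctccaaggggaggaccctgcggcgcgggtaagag
Col1a2: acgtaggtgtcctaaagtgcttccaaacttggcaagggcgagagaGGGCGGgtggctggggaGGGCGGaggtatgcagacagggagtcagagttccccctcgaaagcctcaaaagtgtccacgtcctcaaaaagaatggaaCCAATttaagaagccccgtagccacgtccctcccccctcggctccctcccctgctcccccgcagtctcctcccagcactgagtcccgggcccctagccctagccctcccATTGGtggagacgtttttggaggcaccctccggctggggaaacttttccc
Col3a1: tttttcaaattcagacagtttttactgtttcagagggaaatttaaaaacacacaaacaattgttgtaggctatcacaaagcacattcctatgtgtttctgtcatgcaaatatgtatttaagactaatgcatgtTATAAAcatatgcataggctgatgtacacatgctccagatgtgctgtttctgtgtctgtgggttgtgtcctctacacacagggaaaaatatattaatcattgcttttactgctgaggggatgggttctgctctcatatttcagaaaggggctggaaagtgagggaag

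The Col4a1 window held 1 GGGCGG and 1 CCAAT, the Col4a2 window 3 GGGCGG and 1 CCAAT, and neither held TATAAA. One GGGCGG lies in the stretch the pair shares, 9 bases after the Col4a1 start and 7 after the Col4a2 start, and is thus counted in both. Col1a2 held 2 GGGCGG and 2 CCAAT, one of the latter at the start itself. Col3a1 held only 1 TATAAA, 117 bases before the start. No marked motif overlapped another in these windows. Of the 40 genes, 32 had a window in the table (35 windows). GGGCGG was in 57.1% of these windows against 35.7% of all 32851 promoter windows of that length, CCAAT in 34.3% against 37.4%, and TATAAA in 14.3% against 13.6%. These are matches of letters, not binding sites.

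For Col4a1 (probe at chr8:11198981-11199040, mm8), the 8 cHF+ROSI mice ran from -0.62 over a median of -0.18 to 0.11, and the 8 cHF+F+ROSI mice from -0.79 over -0.59 to -0.26. All 8 cHF+F+ROSI mice lay below the mean of the cHF+ROSI mice, and 2 lay below the lowest of them, which was cHF+ROSI replicate 7. The means were -0.20 ± 0.23 and -0.53 ± 0.19 (SD, n = 8 each). The log2 fold change was -0.34 (SE 0.10, 95% interval -0.54 to -0.13), a ratio of 0.793. By an exact two-sided permutation test over the 16 mice p was 0.010, and limma's adjusted p was 0.220, so the difference did not pass the correction over all probes. The dimmer Col4a1 probe, a little upstream, had -0.18 (-0.40 to 0.04, adjusted p = 0.580 by limma), in the same direction with a smaller size.

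Col4a2 was measured by 2 probes close together (chr8:11448152-11448211 and chr8:11448812-11448871, mm8). On the dimmer one, cHF+ROSI mice ran from -0.68 over -0.21 to -0.02 and cHF+F+ROSI mice from -0.94 over -0.49 to -0.22, and 7 of 8 cHF+F+ROSI mice lay below the cHF+ROSI mean. The groups overlapped, and cHF+ROSI replicate 7 was again the lowest of its group. The log2 fold change was -0.27 (SE 0.10, interval -0.48 to -0.05). The exact permutation test gave p = 0.031 and limma an adjusted p of 0.384. On the brighter probe the ranges were -0.77 over -0.22 to 0.08 and -0.79 over -0.39 to -0.08, and the log2 fold change was -0.19 (SE 0.12, interval -0.43 to 0.05, adjusted p = 0.589 by limma).

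Col4a6, whose α6 chain pairs with α5 in the basement membranes of smooth muscle and some epithelia, lies on the X chromosome (probe at chrX:136413257-136413316, mm8). Its cHF+ROSI mice ran from -0.27 over -0.08 to 0.27 and its cHF+F+ROSI mice from -0.32 over -0.18 to -0.10. The cHF+F+ROSI mice kept to a narrow band within the range of the cHF+ROSI mice except for 2 below it. The log2 fold change was -0.15 (SE 0.07, interval -0.30 to -0.01, exact permutation p = 0.046, limma's adjusted p = 0.466). The dim Col4a6 probes had 0.02 and -0.01 without the filter, so the lower value stood on the 1 kept probe. Its partner Col4a5 had no kept probe, and starts 1343 bases away on the opposite strand. Without the filter, the Col4a5 probe had 0.12. For Col4a4, a chain of the specialised collagen IV of the kidney filter, cHF+ROSI mice ran from -0.13 over -0.06 to 0.05 and cHF+F+ROSI mice from -0.13 over -0.10 to -0.0003 on the brightest probe. The groups overlapped, and the log2 fold change was -0.04 (adjusted p = 0.734 by limma), and 0.04 on the second probe.

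Col15a1 and Col18a1 encode the collagens that link basement membranes to the matrix beneath, and collagen XVIII carries endostatin at its end. Col15a1 ran from -0.49 over 0.03 to 0.41 in cHF+ROSI mice and from -0.37 over 0.02 to 0.33 in cHF+F+ROSI mice, with a log2 fold change of -0.003 (interval -0.26 to 0.26). For Col18a1 the ranges were -0.40 over 0.12 to 0.30 and -0.28 over 0.04 to 0.66, and the log2 fold change was 0.03 (interval -0.23 to 0.29). The ranges of the groups overlapped for both genes, with differences near 0 in the middle of wide intervals.

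**Figure D2:**
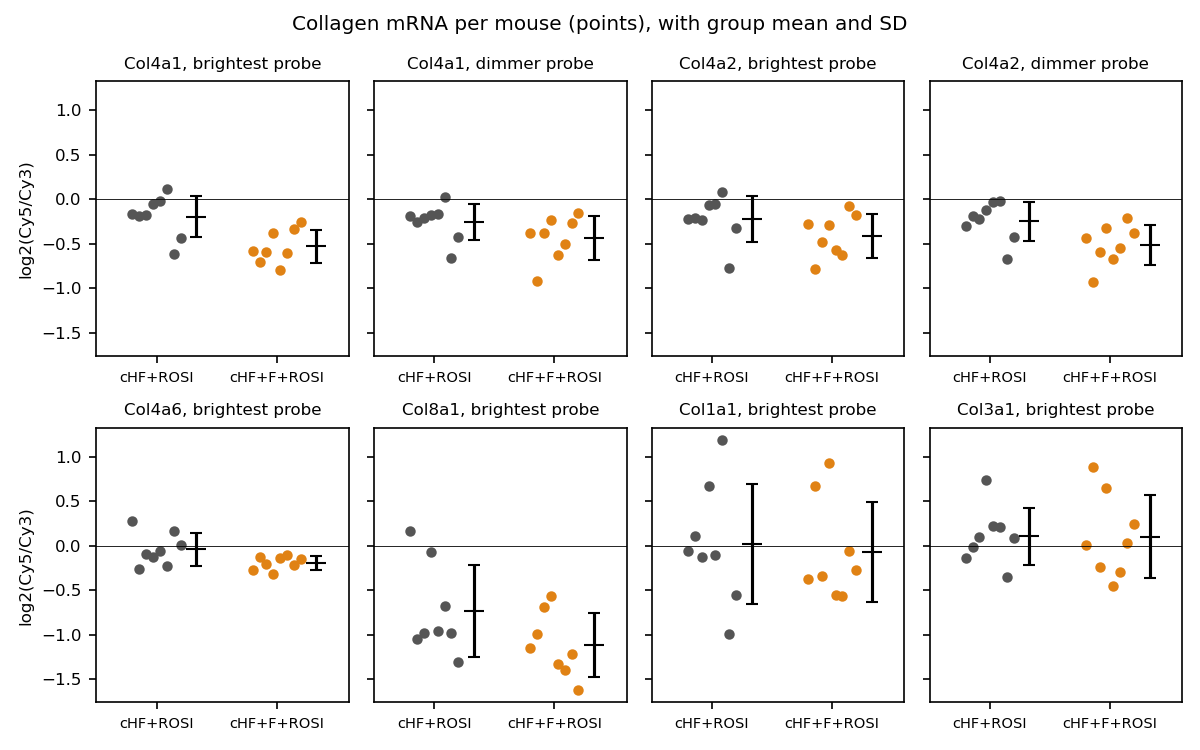
Log2(Cy5/Cy3) of each mouse (points) by group for 8 collagen probes, with the group mean and SD beside the points. For Col4a1 all 8 cHF+F+ROSI mice lie below the cHF+ROSI mean of -0.20, while for Col1a1 and Col3a1 the points of both groups overlap over most of their range.

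The fibrillar chains had a large spread between mice and differences near 0 within wide intervals. Col1a1 and Col1a2 encode the chains of collagen I, the main protein of tendon and of muscle connective tissue. Col1a1 ran from -0.99 over -0.08 to 1.18 in cHF+ROSI mice and from -0.57 over -0.31 to 0.92 in cHF+F+ROSI mice. Its log2 fold change was -0.09 (SE 0.28, interval -0.67 to 0.50, adjusted p = 0.943 by limma), and -0.12 on the second probe. For Col1a2 the ranges were -1.45 over -0.47 to 0.50 and -1.26 over -0.64 to 1.01, with a log2 fold change of 0.05 (SE 0.31, interval -0.60 to 0.70). With such intervals, a change in collagen I mRNA of up to a ratio of 0.629 or 1.41 for Col1a1 was within what these 16 mice allow.

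Col3a1, the chain of collagen III in the more elastic fibrils around fibers and vessels, ran from -0.36 over 0.09 to 0.74 in cHF+ROSI mice and from -0.45 over 0.01 to 0.88 in cHF+F+ROSI mice. Its log2 fold change was -0.01 (SE 0.18, interval -0.38 to 0.37, adjusted p = 0.995 by limma). The groups overlapped over most of their range. The collagen V chains, which start fibrils and limit their width, had differences as small. Col5a1 ran from -0.50 over 0.17 to 0.61 and from -0.14 over 0.18 to 0.81, with a log2 fold change of 0.07 (interval -0.23 to 0.37). Col5a2 ran from -0.54 over -0.20 to 0.28 and from -0.50 over -0.19 to 0.21, a log2 fold change of 0.01. Col5a3 ran from -0.51 over 0.32 to 0.67 and from -0.27 over 0.23 to 0.65, a log2 fold change of -0.04. The ranges of the groups overlapped for each of these chains, with the lowest collagen V values again in cHF+ROSI replicate 7.

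Collagens II and XI are best known from cartilage. Col2a1 had a log2 fold change of 0.01 and Col11a1 one of -0.05. Col11a2 was the fibrillar chain with the largest difference. It ran from -0.27 over 0.11 to 0.79 in cHF+ROSI mice and from -0.11 over 0.39 to 0.88 in cHF+F+ROSI mice, with a log2 fold change of 0.17 (interval -0.14 to 0.48, adjusted p = 0.710 by limma), and of 0.09 without cHF+F+ROSI replicate 2. The groups overlapped over nearly their whole range.

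For 2 fibrillar chains the arrays held replicate spots, which measure the noise of spots but not that of labelling and hybridization, which is part of the spread between mice. Col1a1 had 10 spots on each array, with a median SD between spots of 0.0361, against an SD between mice of 0.673 (cHF+ROSI) and 0.563 (cHF+F+ROSI). For Col2a1, also with 10 spots, the values were 0.0543 against 0.251 and 0.365. The median SE of a log2 fold change was 0.147 over the 9 fibrillar chains, 0.107 over the basement membrane chains and 0.0666 over all probes. As a mean over its chains, the fibrillar class ran from -0.56 to 0.49 in cHF+ROSI mice and from -0.30 to 0.69 in cHF+F+ROSI mice (SD 0.342 and 0.361). The basement membrane class had an SD of 0.135 and 0.109, and the other chains one of 0.174 and 0.132.

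The same mice stood high or low for many chains at once. Of the 32 chains, 15 had their lowest value in cHF+ROSI replicate 7, among them 6 of the 9 fibrillar chains. The highest value was in cHF+F+ROSI replicate 2 for 10 of the 32 chains, 5 of them fibrillar. Besides that mouse, cHF+F+ROSI replicate 4 and cHF+ROSI replicates 4 and 6 had high fibrillar values, as the color map of chains by mouse shows. These mice belong to both diets. The array of cHF+ROSI replicate 7 had a median Cy5 signal over background of 3.02 and that of cHF+F+ROSI replicate 2 one of 2.98, both toward the lower end of the range over all arrays. The array of cHF+F+ROSI replicate 2 also had the widest log2 ratios over all kept probes. Their interquartile range was 0.559, with the next widest array at 0.494 and cHF+ROSI replicate 7 at 0.446. The part of this width in the high values was not tested.

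**Figure D3:**
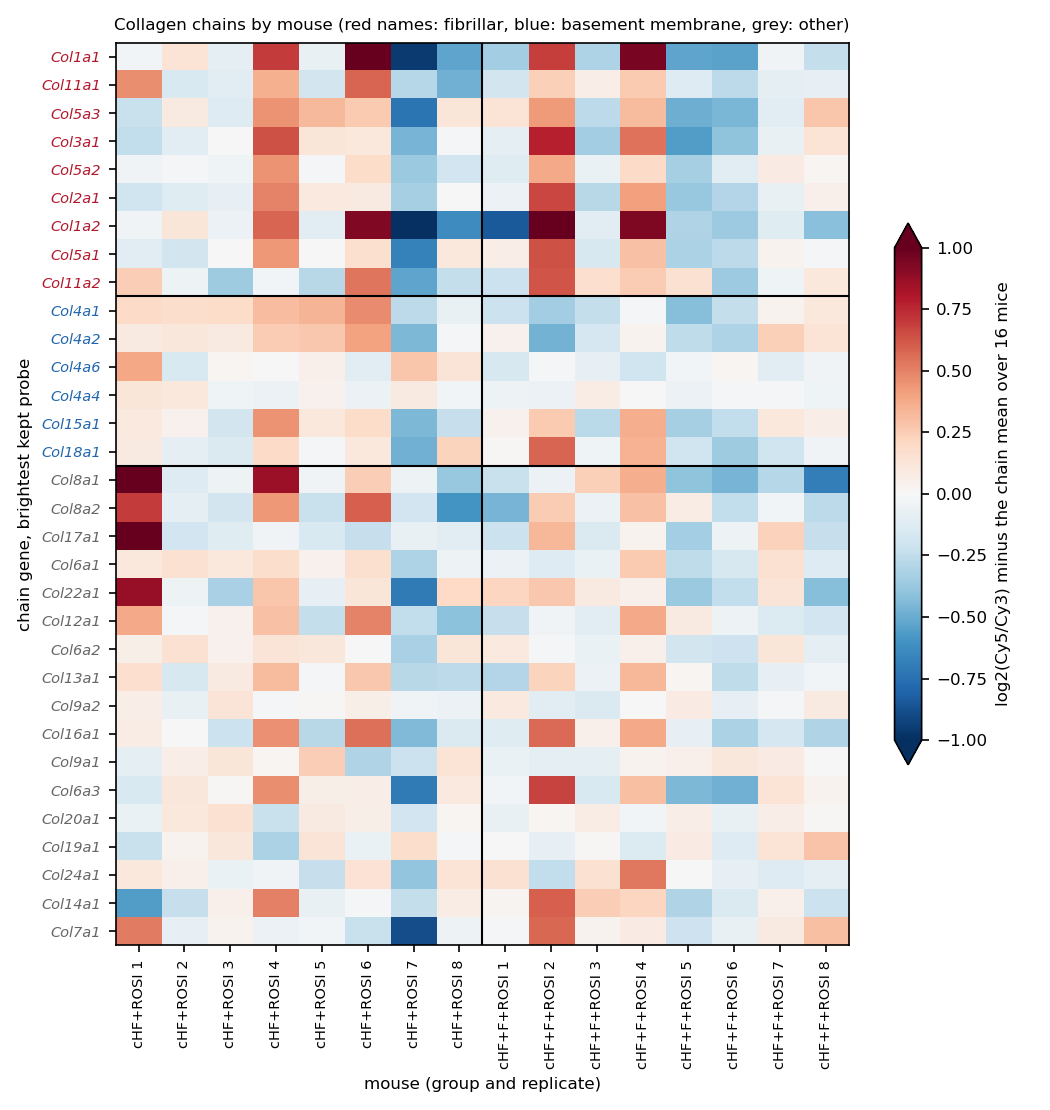
Log2(Cy5/Cy3) of each of the 32 chains (rows) in each of the 16 mice (columns), minus the mean of the chain over all mice; red is above and blue below that mean, and the vertical line parts the groups. Columns of one color run through most fibrillar chains in cHF+ROSI replicates 4, 6 and 7 and in cHF+F+ROSI replicates 2 and 4, while Col4a1 is above its mean in 6 of 8 cHF+ROSI and 2 of 8 cHF+F+ROSI mice.

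Collagen VI forms the beaded microfilaments around every muscle fiber, and mutations in its genes cause muscular dystrophies. Col6a1 ran from -0.62 over -0.21 to -0.14 in cHF+ROSI mice and from -0.57 over -0.41 to -0.05 in cHF+F+ROSI mice, with a log2 fold change of -0.10 (interval -0.26 to 0.07, adjusted p = 0.703 by limma). For Col6a2 the ranges were -0.61 over -0.20 to -0.14 and -0.50 over -0.33 to -0.17, and the log2 fold change was -0.07 (interval -0.22 to 0.07). Col6a3 ran from -0.69 over 0.07 to 0.48 and from -0.47 over 0.02 to 0.69, a log2 fold change of 0.01 (interval -0.33 to 0.35). The 3 chains thus overlapped between the groups, and Col6a3 spread as widely as a fibrillar chain.

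Among the other chains, Col8a1, of the network-forming collagen VIII of vessel walls, had the lowest log2 fold change of all 32. It ran from -1.31 over -0.97 to 0.16 in cHF+ROSI mice and from -1.62 over -1.18 to -0.56 in cHF+F+ROSI mice. The log2 fold change was -0.39 (SE 0.20, interval -0.80 to 0.03, exact permutation p = 0.107, limma's adjusted p = 0.518), and -0.26 without cHF+ROSI replicate 1. The cHF+ROSI mean was raised by replicates 1 and 4, which stood apart from the rest, and the second Col8a1 probe gave -0.08 (interval -0.33 to 0.17).

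The largest positive difference was also among the other chains. Col7a1, the chain of the anchoring fibrils of skin, ran from -0.92 over -0.09 to 0.49 in cHF+ROSI mice and from -0.24 over 0.03 to 0.54 in cHF+F+ROSI mice, with a log2 fold change of 0.20 (SE 0.15, interval -0.11 to 0.50, adjusted p = 0.667 by limma), and of 0.08 without cHF+ROSI replicate 7. Col14a1, on the surface of fibrils, ran from -0.09 over 0.43 to 0.98 and from 0.17 over 0.51 to 1.07, a log2 fold change of 0.12 (interval -0.17 to 0.41), and of 0.05 without cHF+F+ROSI replicate 2. Neither gene had groups that parted. The remaining 11 of the other chains (Col8a2, Col9a1, Col9a2, Col12a1, Col13a1, Col16a1, Col17a1, Col19a1, Col20a1, Col22a1 and Col24a1) lay between -0.11 (Col8a2) and 0.07 (Col24a1) on their brightest probe. The second kept probe of Col22a1 had -0.22 (interval -0.52 to 0.09, adjusted p = 0.632 by limma), against -0.07 on the brightest. That of Col24a1 had -0.04.

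Of the 11 genes with at least 2 kept probes, 6 had the same sign on both. Over the 16 mice, the deviations of both probes from their group means had an r of 0.985 for Col1a1, 0.951 for Col4a2, 0.892 for Col4a1, 0.859 for Col22a1, 0.800 for Col8a1 and 0.660 for Col18a1. It was 0.400 for Col6a2, 0.324 for Col24a1 and 0.298 for Col5a1, and below 0 for Col2a1 (-0.230) and Col4a4 (-0.432).

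Chains of one protein or one class, and 1 pair across classes, were compared across the 16 mice after removal of the group means. For 7 pairs, Pearson's r and Spearman's rho were tested by permutation within groups, with Benjamini-Hochberg adjustment over the 7. Col4a1 and Col4a2 had r = 0.907 and rho = 0.924 (permutation p = 1e-05, the smallest the 100000 resamples can give, adjusted p = 7e-05), and r = 0.839 without the 2 mice farthest from the median. Col1a1 and Col1a2 had r = 0.925 and rho = 0.915 (permutation test, adjusted p = 0.000105), and 0.912 without those 2 mice. Col1a1 with Col3a1 had r = 0.772 and rho = 0.676 (0.846 without 2 mice), and Col15a1 with Col18a1 had r = 0.710 and rho = 0.697 (0.619 without 2 mice).

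Within collagen VI, Col6a1 and Col6a2 had r = 0.770 and rho = 0.703 (0.642 without 2 mice). Col6a1 and Col6a3 had r = 0.625 and rho = 0.635, and 0.401 without 2 mice, so that relation leaned on those mice. Across classes, Col1a1 with Col4a1 had r = 0.623 and rho = 0.659 (0.491 without 2 mice), with 0.896 within cHF+ROSI and 0.219 within cHF+F+ROSI mice, a difference that was not tested. By permutation tests, the adjusted p for r was between 7e-05 and 0.0171 over the 7 pairs. No pairs of unrelated genes were run, so these tests cannot tell a relation particular to partner chains from one shared by many genes. The same holds for the relations with cell type markers below. With the slide means removed too, r was 0.903 for Col4a1 with Col4a2, 0.925 for Col1a1 with Col1a2 and 0.62 for Col1a1 with Col4a1.

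The spread of the chains between mice was set beside markers of cell types (mean log2 ratio of a list per mouse, 6 relations, chosen after the values had been seen). Only the tendon, fibroblast and endothelial lists were used, each with Col1a1 and with Col4a1. No other marker list was run, so a relation particular to 1 cell type cannot be read from these. Col1a1 went with the tendon markers (Scx, Tnmd, Fmod and others), with r = 0.735 and rho = 0.785 (permutation test, adjusted p = 0.0109 and 0.0036), 0.625 without 2 mice and 0.626 with slide means removed. With fibroblast markers it had r = 0.434 (permutation test, adjusted p = 0.171) and with endothelial markers 0.534 (adjusted p = 0.0768), which fell to 0.130 without 2 mice. Col4a1 went with the endothelial markers, with r = 0.638 and rho = 0.641 (permutation test, adjusted p = 0.0285 and 0.0327), 0.487 without 2 mice and 0.592 with slide means removed. For Col4a1 the relation with tendon markers was 0.373 and that with fibroblast markers 0.102 (permutation tests, adjusted p = 0.244 and 0.722).

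**Figure D4:**
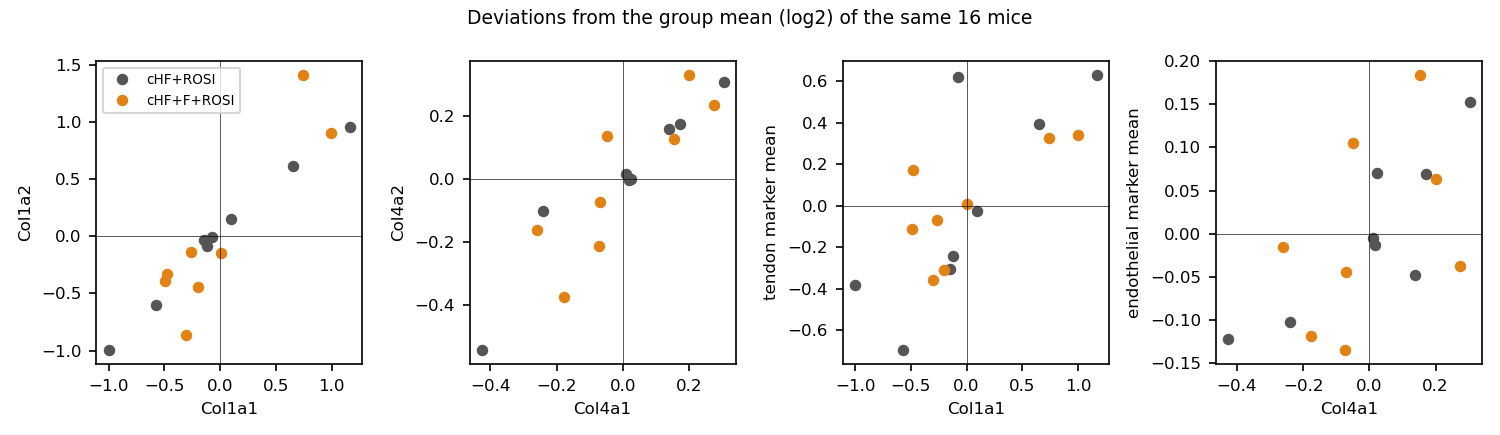
Deviations from the group mean on the log2 scale of the same 16 mice (points, colored by group): Col1a2 against Col1a1, Col4a2 against Col4a1, the tendon marker mean against Col1a1 and the endothelial marker mean against Col4a1. The points of the chain pairs lie along a line (r = 0.925 and 0.907), those with the marker means scatter more (r = 0.735 and 0.638).

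The endothelial markers themselves, for cells that lay down basement membrane along capillaries, were set beside the collagen IV values. Of 9 markers with a kept probe (10 listed), 8 were lower and 1 higher, with a median log2 fold change of -0.19. At an unadjusted p of up to 0.05, 7 of the 9 were lower and none higher, against 4.93% and 5.35% of all probes. None passed the adjustment (limma, adjusted p 0.196 to 0.452 for these 7 and up to 0.904 over all 9). Cldn5, a tight junction protein, had -0.42, Eng, a TGF-beta co-receptor, -0.31, Emcn -0.24, Cdh5, the endothelial cadherin, -0.19, and Pecam1, an adhesion protein between endothelial cells, -0.14. The mean of the list ran from -0.37 to -0.09 in cHF+ROSI mice and from -0.57 to -0.25 in cHF+F+ROSI mice. Within the slides the median difference of the markers was -0.32, -0.09, -0.29 and -0.05. The part of these cells in the collagen IV values was not tested.

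The tendon markers, whose list mean ran from -0.98 to 0.35 in cHF+ROSI and from -0.74 to -0.04 in cHF+F+ROSI mice, had a median of -0.09 with 7 of 8 lower and none at an unadjusted p of up to 0.05. Of 10 fibroblast markers 1 was lower at that p, Pi16 at -0.63 (adjusted p = 0.394 by limma), with a list median of -0.08. Of 10 markers of smooth muscle and pericytes 2 were lower and 1 higher at that p: Rgs5 had -0.44 and Kcnj8 -0.19 while Abcc9 had 0.22, with a list median of -0.06. Of the muscle fiber markers only Mylpf passed that p, at 0.18, and the list median was -0.07. Adipocyte (median 0.36), Schwann cell (-0.24), macrophage (-0.04), red blood cell (0.19) and slow fiber (-0.43) markers had none. Among all probes 4.93% were lower and 5.35% higher at that p, and with so few genes per list nothing is read from these counts. The part of any of these cells in the collagen values was not tested.

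Within the slides, each with 2 mice per group, the collagen IV difference was not uniform. For Col4a1 it was -0.48, -0.47, -0.51 and 0.11 on slides 1 to 4, and for the brightest Col4a2 probe -0.42, -0.28, -0.37 and 0.32. Slide 4 is the one that held cHF+ROSI replicates 7 and 8, the low mice of their group, and cHF+F+ROSI replicates 1 and 8. Col4a6 was lower on all 4 slides (-0.17, -0.12, -0.02 and -0.30), as was Col8a1 (-0.39, -0.42, -0.48 and -0.24). With slide as a block, which leaves the log2 fold change as it is in this balanced layout, Col4a1 had an adjusted p of 0.250 by limma. Without cHF+ROSI replicate 7, Col4a1 had -0.40 with an adjusted p of 0.0959 by limma. This was the lowest of the 16 fits without 1 mouse, and the highest was 0.370, without cHF+ROSI replicate 4.

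For the fibrillar chains the sign differed between slides. Col1a1 had 0.14, -0.08, -0.85 and 0.45, Col1a2 0.62, 0.05, -0.65 and 0.20, and Col3a1 0.39, -0.32, -0.35 and 0.26. The median over the fibrillar chains was 0.30, -0.19, -0.35 and 0.26, over the basement membrane chains -0.14, -0.12, -0.27 and 0.12, and over the other chains -0.12, -0.03, -0.09 and 0.09. The difference between slides was not tested.

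**Figure D5:**
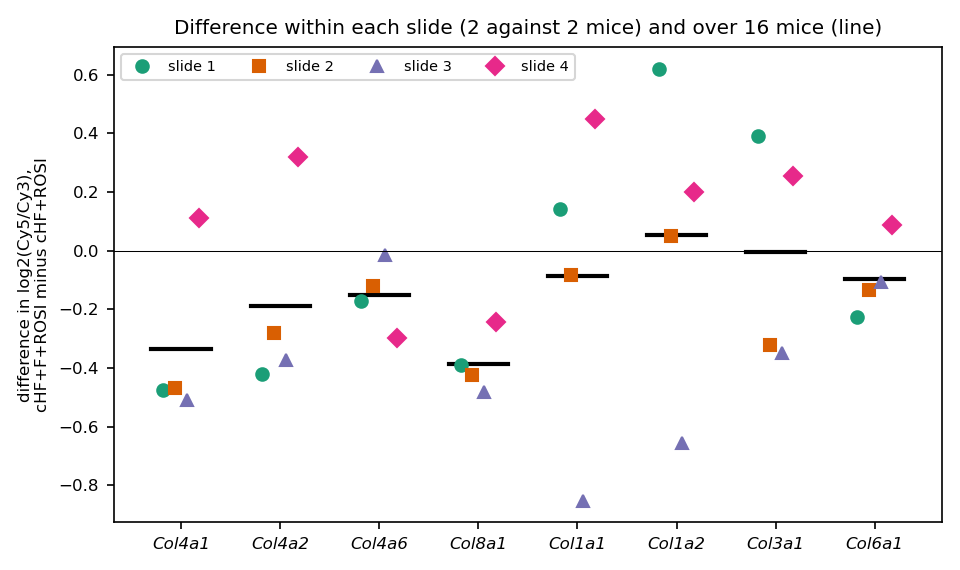
Difference in log2(Cy5/Cy3), cHF+F+ROSI minus cHF+ROSI, within each of the 4 slides (symbols, 2 against 2 mice) and over all 16 mice (line) for 8 chains. Col4a1 and Col4a2 lie below 0 on slides 1 to 3 and above 0 on slide 4, and Col1a1 ranges from -0.85 to 0.45.

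The genes that make, fold, cut and bind collagen were examined in 6 lists, with 80 of 97 genes measured. None of them passed the adjusted p. At an unadjusted p of up to 0.05, 7 of the 80 were lower and 1 higher. Of all 13575 genes by their brightest probe, 761 were lower and 726 higher, and of all probes 4.93% and 5.35%. Of 23 genes for synthesis and crosslinking, 18 were lower and 5 higher, with a median of -0.06 (-0.03 without cHF+ROSI replicate 6). Plod3, which hydroxylates and glycosylates lysines of collagen and is needed for collagen IV, had -0.21 (SE 0.06, adjusted p = 0.196 by limma). Ppib, a prolyl isomerase of the endoplasmic reticulum, had -0.10, and Mia3 (TANGO1), which loads collagen into transport carriers, had 0.18 (adjusted p = 0.243 by limma).

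Of 11 genes for breakdown and its inhibitors, 7 were lower and 4 higher, with a median of -0.13, which was -0.05 without cHF+F+ROSI replicate 1. The membrane-bound metalloproteinases Mmp14 and Mmp15 had -0.26 and -0.20, and Mrc2, a receptor that takes up collagen fragments, had -0.17 (adjusted p = 0.239, 0.217 and 0.226 by limma). Of 5 collagen receptors 4 were lower, with a median of -0.13 and Itgb1, the shared β1 integrin, at -0.13 (adjusted p = 0.237 by limma). The medians for synthesis and crosslinking and for breakdown and its inhibitors both lay below that of all 13575 genes by their brightest probe (-0.002). No gene passed the adjustment. The breakdown list holds inhibitors such as Timp1 and Timp2 beside genes that cut collagen, so its median is not that of cutting alone.

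The 18 fibril partners (small proteoglycans such as Lum and Fmod and glycoproteins such as Fn1, Postn and Thbs4, some of them also on the tendon and fibroblast lists) had a median of -0.07 (-0.02 without cHF+ROSI replicate 4), with 15 lower and none at an unadjusted p of up to 0.05. The 9 basement membrane partners, among them laminin chains and nidogens, had a median of -0.01 (-0.06 without cHF+ROSI replicate 7 and 0.02 without cHF+F+ROSI replicate 5), with 5 lower and 4 higher and none at that p. Their values stood beside the -0.10 of the basement membrane collagen chains and the -0.17 of the collagen IV chains, and this difference was not tested. Of 14 genes of the TGF-beta axis, the main inducer of fibrillar collagen, 10 were lower with a median of -0.07 (-0.04 without cHF+ROSI replicate 2). Skil, a repressor in that pathway and one of its early targets, had -0.32 (SE 0.09, adjusted p = 0.218 by limma).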

How the data were processed

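RNA from 16 gastrocnemius muscles was compared with a common Cy3 pool on 1 array per mouse, without dye swap. The authors deposited spot intensities from Agilent Feature Extraction (10.5.1.1 per the file headers, 10.5.5.1 per the submitters' processing notes, probe coordinates on mm8). The authors also deposited a table of log2 values, made after removing weak spots and normalizing Cy5 against Cy3. In the study, RNA of each cHF+ROSI mouse was hybridised in duplicate, and the second set is used here.

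Median intensities were corrected by normexp (offset 50). Spots with a local background over 5 times the array's median (147 on 10 arrays, none for collagen) were left out, a step added after the data had been seen. With them, normexp failed on 3 arrays, where the interquartile range of log2 ratios was 0.0556, 0.117 and 0.156 against 0.324, 0.42 and 0.44 without them. The range also moved for cHF+F+ROSI replicate 2 (0.421 with them, 0.559 without) and replicate 3 (0.403 and 0.458). Controls and outlier-flagged spots were dropped, both channels had to reach 2 times the background, and ratios were normalized within arrays by loess and averaged per probe. The test was limma 3.58.1 (lmFit, eBayes; R 4.3.3), adjusted by Benjamini-Hochberg over 19398 probes. Single probes were also tested by exact permutation over all 12870 splits of the mice. The code was tested on these same arrays, with group labels mixed and the Cy5 signal of probes drawn at random raised or lowered. Changes as small as the collagen differences between the groups were not tried. The number of arrays limits the precision.

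A gene stands with its brightest kept probe. Values per mouse are given for the chains of collagens I, III, IV, V, VI, XV and XVIII, for collagen probes with an unadjusted p of up to 0.05 and for the 3 largest differences in each direction. Of the other lists, genes at that p are named, at most 5 per list. The collagen genes and all lists were chosen with earlier results of these data known. The annotation was of another build than the probes, so the exons under them were not read.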

Additional observations from a re-analysis of the deposited data

Results flagged for a closer look

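In 86 sets of 8 mice (each of the 43 kept collagen probes in each group), 1 value stood apart from the others by Dixon's test at the 95% level in 5 sets, where chance alone would give 4.3 (about 1 in 20). In cHF+ROSI replicate 1, Col17a1 had 1.12 with the next mouse at -0.227 (a gap of 0.872 of the range) and the dimmer Col2a1 probe -0.14 with the next at -0.627 (0.755). In cHF+ROSI replicate 7, Col6a2 had -0.611 with the next mouse at -0.279 (0.697) and the dimmer Col18a1 probe -0.431 with the next at -0.233 (0.527). The Col4a4 value of cHF+F+ROSI replicate 3 was -0.000328 with the next at -0.0782 (0.582). The array of cHF+ROSI replicate 1 was the dimmest, with a median Cy5 signal over background of 2.33, and cHF+ROSI replicate 7 had the lowest value for 15 of the 32 chains.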

How the results depend on the processing

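No collagen probe passed the adjusted p under any of the 17 alternative settings or with any 1 mouse left out. Col4a1 was lower by -0.378 to -0.295 over the alternatives and by -0.396 to -0.292 with each mouse left out. Its unadjusted p was up to 0.05 in all 17 settings, with adjusted p from 0.0657 to 0.453. These p-values are limma's, except in the setting that put an ordinary t-test in its place. The dimmer Col4a2 probe ran from -0.289 to -0.218, with such a p in 16 of 17. Col4a6 ran from -0.174 to -0.0659, with such a p in 7 of 17 settings and in 8 of 16 fits without a mouse, so its place among the 3 probes depends on the setting. The median of the basement membrane chains was between -0.112 and -0.0162 in all 18 settings, that of the fibrillar chains between -0.135 and 0.0564.

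Collagen probes lower at an unadjusted p of up to 0.05 numbered 1 with the signals processed by Feature Extraction and 5 without a filter (Col25a1 and Col28a1 added). With each mouse left out they numbered 2 to 5, the highest without cHF+ROSI replicate 7 (both probes of Col4a1 and of Col4a2, and Col6a2), and those higher 0 to 1, the latter Col7a1 without cHF+ROSI replicate 1. Pathway genes lower at that p numbered 3 with Cy5 alone, 11 with slide as a block and 12 with array weights, and 6 to 13 with each mouse left out (13 without cHF+ROSI replicate 7, 11 without cHF+F+ROSI replicate 2). Those higher numbered 2 with processed signals and with array weights. Within slides, medians moved to 0.0309 for the breakdown list on slide 1, to -0.218 for all chains, -0.351 for fibrillar and -0.271 for basement membrane chains on slide 3, and to 0.115 for basement membrane chains on slide 4. The cause of these moves was not tested.

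Signs of differences near 0 turned. With normexp on all spots, added after the data had been seen, Col15a1 had 0.0357 and Col6a3 -0.000733, and Col4a1 -0.325. With processed signals Col15a1 had 0.000621, Col3a1 0.00657 and Col5a2 -0.0431. With median centring Col3a1 had 0.0482 and Col5a3 0.00564. With Cy5 alone Col18a1 had -0.0571 and Col5a3 0.0199. In the authors' table Col3a1 had 0.0619 and Col5a3 0.0176. Col15a1 had 0.00563 without a filter and 0.0161 with a limit of 4. With array weights Col14a1 had -0.00528, Col18a1 -0.0712, Col1a2 -0.135, Col5a1 -0.0685, Col5a2 -0.0668 and Col6a3 -0.150. With each mouse left out, signs turned for Col15a1 (-0.0682 to 0.0600), Col18a1 (-0.0510 to 0.0829), Col1a1 (-0.230 to 0.0800), Col1a2 (-0.148 to 0.190), Col3a1 (-0.117 to 0.0847), Col5a1 (-0.0238 to 0.135), Col5a2 (-0.0434 to 0.0753), Col5a3 (-0.145 to 0.0294) and Col6a3 (-0.0901 to 0.0792). All 7 chain pairs kept an adjusted p under 0.05 by permutation in the 6 settings run for them.

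The replicate numbers did not pair the mice, with correlations of same-numbered mice from -0.273 to 0.338. With the replicate block, 3 collagen probes and 6 pathway genes had such a p and were lower. The block leaves the fold change as it is (-0.335 for Col4a1, with an adjusted p of 0.453), since each number holds 1 mouse per group. The 8 mice per group, the shared reference, the slide positions that go with the diets and the wide intervals of many chains limit these comparisons.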
